A study of Mus musculus with 9 samples.

Results

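A list of 37 interferon-stimulated genes was followed through the liver arrays of the study. Members were found by the RefSeq accession that the array files give for each probe, and a RefSeq table turned these accessions into symbols. A probe was found for 35 of the 37 genes, out of 20972 genes named on the array. Mx1 and Mx2 matched no probe and are not analysed here. The rule itself uses no expression value, but the list was put together with earlier results of these data known. The arrays, 9 in all and each from 1 mouse, held liver RNA of males at 20 weeks of age in 3 groups of 3 mice. STAM mice, a model of fatty liver inflammation with diabetes and liver tumours, were made from C57B/6 J mice by low-dose streptozotocin soon after birth, which damages the insulin-secreting cells, followed by a high-fat diet. STAM-NON mice received no treatment on top of that. STAM-INS mice had the same streptozotocin and diet and were given insulin as glargine under the skin. Normal mice were untreated males on chow and had neither streptozotocin nor the high-fat diet, so the effects of drug, diet, diabetes and tumours cannot be told apart in a comparison with Normal. The sources used here do not say whether tumour tissue was part of the liver pieces.

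Interferons are secreted proteins that warn cells of nucleic acid from viruses or from damaged cells. Type I interferons act through the receptor IFNAR, the kinases JAK1 and TYK2, and a complex that holds STAT2 and IRF9 and binds the interferon-stimulated response element (ISRE) before its target genes. Interferon gamma acts on another element, the gamma-activated site (GAS). The targets include enzymes that degrade viral RNA, proteins that hold viral RNA or alter membranes, and the sensors and transcription factors that carry the signal further. Hepatocytes, macrophages and most other liver cells can respond.

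Promoter sequence is shown for a few members because the same short element recurs in the list. The 300 bases around a start site were taken from a RefSeq table of the build GRCm38.p6. The promoters of a single chromosome and windows not 300 bases long were left out. This left 28 of the 37 members with a promoter. The letters GAAANNGAAA, the core of the ISRE, were searched on both strands and stood in the window of 16 of these 28 genes (57.1%). The share over all 27025 genes left in was 3.99%, and over all their 32851 promoters it was 3.44%. Members with 2 or more matches, which may overlap, numbered 7. The letters TTCNNNGAA, the core of the GAS, stood in the window of 8 of the 28 genes (28.6%), in 7 of them before the start, and in that of 9.55% of all genes (8.3% of all promoters). The stretches below hold the 150 bases before a start site, with the ISRE core in capitals. In the first of them, 3 overlapping matches began 78, 72 and 66 bases before the start.
Isg15, chr4:156200819-156200968, minus strand: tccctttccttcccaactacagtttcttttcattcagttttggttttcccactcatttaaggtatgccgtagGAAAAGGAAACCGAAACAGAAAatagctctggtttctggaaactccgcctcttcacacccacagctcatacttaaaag
Oas1a, chr5:120907526-120907675, minus strand: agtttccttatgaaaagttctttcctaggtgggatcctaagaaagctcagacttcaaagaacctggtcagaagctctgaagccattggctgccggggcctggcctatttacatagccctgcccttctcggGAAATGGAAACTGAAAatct
Rsad2, chr12:26456453-26456602, minus strand: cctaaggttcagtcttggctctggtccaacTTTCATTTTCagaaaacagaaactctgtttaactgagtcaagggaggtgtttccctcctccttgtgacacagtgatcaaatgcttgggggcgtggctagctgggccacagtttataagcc
Irgm1, chr11:48871421-48871570, minus strand: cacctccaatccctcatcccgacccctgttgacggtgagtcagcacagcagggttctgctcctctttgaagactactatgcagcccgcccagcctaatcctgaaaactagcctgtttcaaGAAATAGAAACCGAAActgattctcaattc
Bst2, chr8:71537473-71537622, minus strand: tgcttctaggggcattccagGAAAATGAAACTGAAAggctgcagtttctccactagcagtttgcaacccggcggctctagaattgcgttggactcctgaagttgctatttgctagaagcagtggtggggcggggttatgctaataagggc
The match of Rsad2 lies on the opposite strand and reads TTTCATTTTC, and it began 120 bases before the start. The next stretch has the GAS core in capitals instead and is that of Irf1, the transcription factor first found through the interferon beta gene.
Irf1, chr11:53769864-53770013, plus strand: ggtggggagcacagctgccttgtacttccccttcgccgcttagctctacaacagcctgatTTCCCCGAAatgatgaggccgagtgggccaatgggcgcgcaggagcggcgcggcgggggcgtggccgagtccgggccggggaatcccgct
Ifi44 is shown because neither core was found in its window, although its difference from Normal was close to that of Oas1a.
Ifi44, chr3:151749911-151750060, minus strand: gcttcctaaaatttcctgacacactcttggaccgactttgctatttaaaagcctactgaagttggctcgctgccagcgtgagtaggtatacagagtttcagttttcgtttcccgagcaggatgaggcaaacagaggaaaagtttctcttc
The 16 genes with an ISRE core had a median difference between STAM-NON and Normal of 0.72 on the log2 scale (0.07 to 2.19), and the 12 without one had 1.1 (0.01 to 2.14). The ranges lay over each other. A match is only a description of these letters in this window.

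Levels are background-subtracted signals on a log2 scale, centred for each array on its 75th percentile, so 0 is the signal of the spot at that percentile, and levels of different genes are not compared. Differences are on the same log2 scale, with the standard error (SE) from limma. A gene is said to have passed the test, to have risen or to have fallen where limma's adjusted p over all 26278 tested probes was under 0.05. The share of spots well above background ran from 46.22% to 65.02% per array, and STAM-INS 1, STAM-NON 3 and STAM-NON 1 stood above the other 6 arrays in the share of probes detected. All 6 STAM arrays lay on 1 slide and all 3 Normal arrays on another, so slide and the comparison with Normal cannot be told apart. The STAM-NON arrays also lay in row 1 of their slide and the Normal arrays in row 2 of theirs. Every member with a probe was tested. Of the 35, 34 were well above background on all 9 arrays. Oas3 was well above background on 2 of 3 STAM-NON, 3 of 3 STAM-INS and 0 of 3 Normal arrays.

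Most of the genes were higher in the untreated STAM liver than in the Normal liver, and they were higher than Normal in insulin-treated STAM liver too. In STAM-NON minus Normal, 34 of 35 genes lay above 0, with a median difference of 0.82 against -0.13 over all tested probes. Of these, 19 rose (54.3%), where 6.3% of all tested probes rose, and 1 fell, where 9.76% fell. Taken in either direction, 20 of 35 (57.1%) passed the test against 16.1% of all tested probes. In 24 genes all 3 STAM-NON mice lay above all 3 Normal mice, which held for 13.2% of all tested probes. In STAM-INS minus Normal, 25 of 35 genes rose (71.4%), where 5.16% of all tested probes rose and 13.9% passed in either direction, and none of the genes fell. The median difference was 1.15 against -0.09 over all tested probes, and in 28 genes the groups did not overlap, against 15.1% of all tested probes. Both comparisons use the same 3 Normal mice. These counts hold Oas3, which passed the filter on dim probes only through STAM-INS, a group in which it is high, and so had to differ. Without it, 18 of 34 genes rose in STAM-NON (52.9%) and 24 of 34 in STAM-INS (70.6%), with medians of 0.82 and 1.1. Without the 3 arrays with the most probes detected, which left 1 STAM-NON mouse assumed to vary like the other mice, none of the genes passed in STAM-NON minus Normal (0.624% of all tested probes did) but 34 of 35 still lay above 0 with a median of 0.96, and 14 passed in STAM-INS minus Normal. With the row of the array on its slide as a block, 0 and 15 passed, with medians of 0.53 and 1.04. The share of all tested probes passing with that block is not given here.

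**Figure D1:**
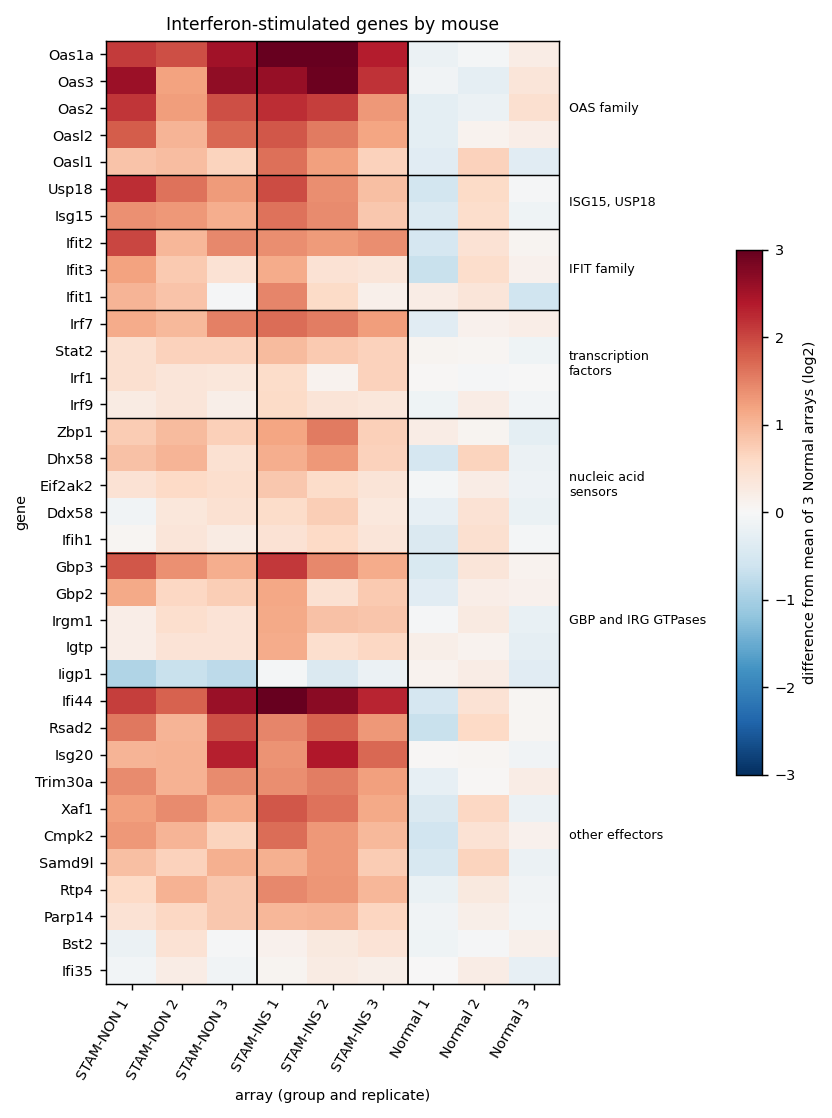
Difference of each gene (rows, by role) in each mouse (columns, 3 per group) from the mean of the 3 Normal arrays, as colour on the log2 scale, cut at 3. Red fills the columns of both STAM groups for most genes, Bst2 and Ifi35 stay pale, and Iigp1 is blue in the 3 STAM-NON columns.

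The difference was seen in each STAM mouse. The median over the 35 genes, taken against the mean of the Normal mice, was 1.02, 0.96 and 0.75 in the 3 STAM-NON mice. It was 1.34, 1.29 and 0.79 in the 3 STAM-INS mice, and -0.25, 0.23 and -0.07 in the 3 Normal mice. No STAM mouse overlapped with a Normal mouse. The genes above every Normal mouse numbered 29, 32 and 26 in STAM-NON and 31, 33 and 29 in STAM-INS. Normal mice differed among themselves in these genes. Normal 2 had the highest level of its group in 24 of 35 genes, and Normal 1 the lowest in 24. The median SD over the genes was 0.30 in Normal, against 0.16 over all tested probes, 0.31 against 0.18 in STAM-INS, and 0.26 against 0.23 in STAM-NON. Among the STAM-INS mice, replicate 3 had the lowest level in 27 of 35 genes.

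**Figure D2:**
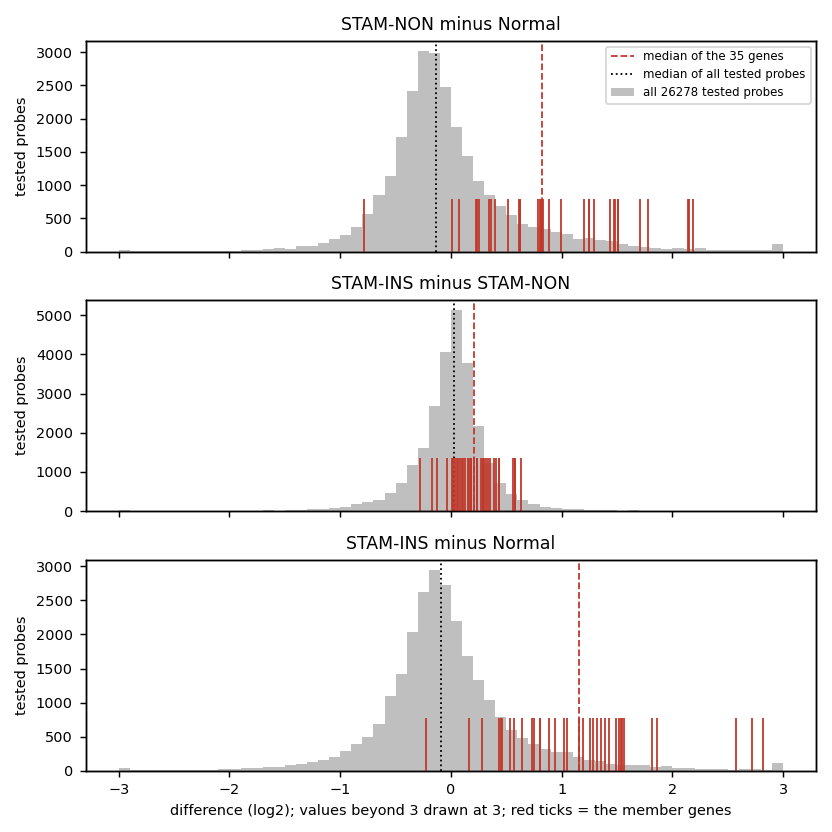
Histograms of the log2 difference of all 26278 tested probes (grey) in the 3 comparisons, with the 35 interferon-stimulated genes as red ticks, the median of the 35 genes as a dashed line and that of all tested probes as a dotted line. The dashed line lies at 0.82, 0.21 and 1.15 from top to bottom, and the dotted line at -0.13, 0.03 and -0.09.

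The OAS family makes the small messenger that switches on the RNA-degrading enzyme RNase L. Leaving out Oas3, which was well above background in 0 of 3 Normal mice, 3 of 4 genes rose in STAM-NON and 4 of 4 in STAM-INS, with median differences of 1.65 and 1.70. Oas1a, a synthetase of this family, stood at 3.68, 3.51 and 4.10 in STAM-NON, at 4.68, 4.58 and 3.94 in STAM-INS, and at 1.42, 1.52 and 1.80 in Normal. The Normal mice lay more than a log2 unit below every STAM mouse. The difference from Normal was 2.19 (SE 0.23, adjusted p = 0.00402) in STAM-NON and 2.82 (SE 0.23, adjusted p = 0.00173) in STAM-INS. Its second probe gave 2.16 and 2.68. Oas2, which has a larger enzyme form, stood at 1.99, 1.09 and 1.77 in STAM-NON, at 2.04, 1.91 and 1.13 in STAM-INS, and at -0.46, -0.34 and 0.31 in Normal. The lowest STAM mouse of each group lay above the highest Normal mouse, with differences of 1.78 (SE 0.33) and 1.86 (SE 0.33) and adjusted p of 0.0162 and 0.0123. Oas3, the form that responds to long RNA, was dim. It stood at -2.91, -4.27 and -2.83 in STAM-NON, at -2.86, -2.55 and -3.31 in STAM-INS, and at -5.58, -5.74 and -5.13 in Normal, where it was not well above background. Its signal in STAM-INS was at least 1.99-fold higher than in Normal, a bound given with no test, since the gene was tested only through STAM-INS. Oasl2, an OAS-like protein, stood at 1.42, 0.63 and 1.33 in STAM-NON, at 1.48, 1.17 and 0.80 in STAM-INS, and at -0.67, -0.29 and -0.19 in Normal. Its differences were 1.51 and 1.53 (SE 0.26 in both), and no mouse crossed between STAM and Normal. Oasl1, an OAS-like protein known to hold back translation of Irf7, stood at 4.02, 4.09 and 3.83 in STAM-NON, at 4.81, 4.41 and 3.87 in STAM-INS, and at 2.82, 3.86 and 2.84 in Normal. The second Normal mouse reached into the STAM-NON range, and the difference of 0.81 (SE 0.32, adjusted p = 0.11) did not pass the test, while 1.19 in STAM-INS did (adjusted p = 0.0429).

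ISG15 is a ubiquitin-like protein that is joined to other proteins, and USP18 takes it off again and also blocks the type I receptor. Both genes rose in both STAM groups. Isg15 stood at 4.87, 4.79 and 4.58 in STAM-NON, at 5.13, 4.91 and 4.31 in STAM-INS, and at 3.08, 4.03 and 3.37 in Normal. The Normal mice lay below all STAM mice, the second being nearest, and the differences were 1.25 (SE 0.28, adjusted p = 0.0253) and 1.29 (SE 0.28, adjusted p = 0.0227). A second probe of Isg15 gave 1.21 and 1.32. Usp18 stood at 3.37, 2.81 and 2.44 in STAM-NON, at 3.13, 2.56 and 2.08 in STAM-INS, and at 0.61, 1.74 and 1.14 in Normal. In both STAM groups replicate 3 was nearest to Normal. The differences were 1.71 (SE 0.37, adjusted p = 0.0238) and 1.43 (SE 0.37, adjusted p = 0.0395).

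The IFIT proteins bind foreign RNA and block its translation. Of the 3 genes only Ifit2 passed the test. It stood at -0.89, -1.89 and -1.46 in STAM-NON, at -1.50, -1.62 and -1.50 in STAM-INS, and at -3.39, -2.46 and -2.81 in Normal. All STAM mice lay above all Normal mice, with differences of 1.48 (SE 0.29, adjusted p = 0.0176) and 1.35 (SE 0.29, adjusted p = 0.0221). Ifit1 differed by 0.62 and 0.73 (SE 0.41 in both), with an SD of 0.67 in STAM-INS, the widest of the list in that group, and its groups overlapped. Ifit3 differed by 0.81 and 0.64 (SE 0.34 in both, adjusted p = 0.13 and 0.232). The second Normal mouse, at 1.47, lay above STAM-NON 3 at 1.36 and above STAM-INS 2 and 3 at 1.36 and 1.30.

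Of the 4 transcription factors, Irf7 and Stat2 rose and Irf1 and Irf9 did not pass the test. Irf7, which amplifies the production of type I interferon, stood at 1.90, 1.75 and 2.30 in STAM-NON, at 2.46, 2.31 and 2.04 in STAM-INS, and at 0.45, 0.92 and 0.97 in Normal. The 2 sets of mice lay apart, with differences of 1.20 (SE 0.20, adjusted p = 0.0129) and 1.49 (SE 0.20, adjusted p = 0.00474). Stat2, which acts with IRF9 at the ISRE, stood at 3.12, 3.34 and 3.34 in STAM-NON, at 3.58, 3.43 and 3.34 in STAM-INS, and at 2.72, 2.71 and 2.51 in Normal. Its differences were 0.62 and 0.81 (SE 0.12 in both), with adjusted p of 0.0183 and 0.00713. Irf9 differed by 0.26 and 0.44 (SE 0.13 in both). Irf1, which carries the GAS core printed above, differed by 0.39 and 0.45 (SE 0.16 in both, adjusted p = 0.111 and 0.0857), although every STAM mouse lay above every Normal mouse.

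**Figure D3:**
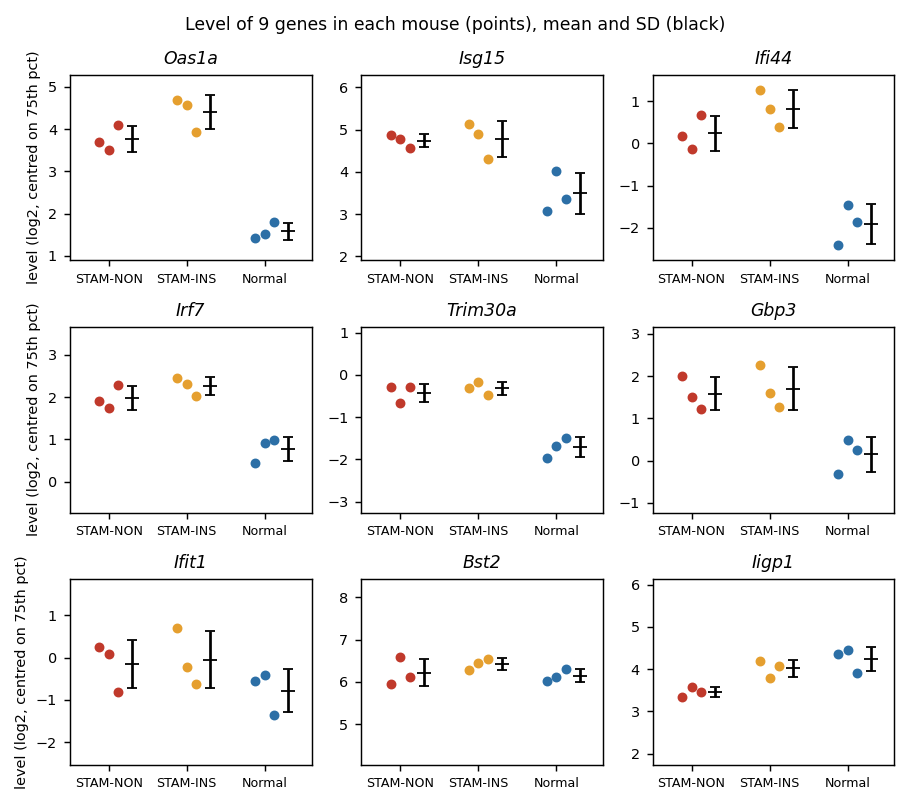
Level of 9 genes in each mouse (points) as log2 signal centred on the 75th percentile of the array, with mean and SD of the 3 mice in black, all panels spanning the same range. Oas1a, Isg15, Ifi44, Irf7, Trim30a and Gbp3 lie apart from Normal in both STAM groups, Ifit1 and Bst2 overlap, and Iigp1 is lowest in STAM-NON.

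The sensors of foreign nucleic acid had a median difference of 0.51 in STAM-NON and 0.57 in STAM-INS. In STAM-NON, Zbp1 alone of the 5 rose, and in STAM-INS Zbp1 and Eif2ak2 did. Zbp1, which detects left-handed double strands and can start necroptosis, stood at 2.15, 2.35 and 2.11 in STAM-NON, at 2.56, 2.95 and 2.11 in STAM-INS, and at 1.60, 1.47 and 1.09 in Normal. No STAM mouse reached down to the Normal range, and the differences were 0.81 (SE 0.22, adjusted p = 0.0428) and 1.15 (SE 0.22, adjusted p = 0.0159). A second probe gave 1.26 and 1.68. Eif2ak2 encodes PKR, the kinase that halts translation when double-stranded RNA is present. It stood at -0.16, 0.01 and -0.07 in STAM-NON, at 0.21, -0.05 and -0.21 in STAM-INS, and at -0.66, -0.36 and -0.74 in Normal. The differences were small, 0.51 and 0.57 (SE 0.15 in both), and the second passed the test (adjusted p = 0.0408) while the first just missed it (adjusted p = 0.0512). The RIG-I-like receptors did not pass it in either comparison. Ddx58, which encodes RIG-I, differed by 0.23 and 0.53 (SE 0.23). Ifih1, which encodes MDA5, differed by 0.23 and 0.46 (SE 0.22), and its second probe by 0.80 and 0.68. Dhx58, which encodes LGP2, differed by 0.79 and 1.02 (SE 0.30, adjusted p = 0.105 and 0.058).

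The GTPases of the list divided into guanylate-binding proteins, which rose in both STAM groups, and immunity-related GTPases, which did not rise in STAM-NON. Both kinds attack the vacuoles of intracellular pathogens and are known for a strong response to interferon gamma. Gbp3 stood at 2.0, 1.51 and 1.22 in STAM-NON, at 2.25, 1.59 and 1.26 in STAM-INS, and at -0.32, 0.50 and 0.25 in Normal. Its groups lay apart, with differences of 1.44 (SE 0.32, adjusted p = 0.0249) and 1.56 (SE 0.32, adjusted p = 0.0188). Gbp2 stood at 0.99, 0.49 and 0.61 in STAM-NON, at 1.01, 0.33 and 0.65 in STAM-INS, and at -0.47, 0.07 and -0.01 in Normal. It differed by 0.83 and 0.80 (SE 0.23 in both), close to the threshold with adjusted p of 0.0419 and 0.0498, and lost the call under 14 and 16 of 22 alternative settings, not counting the run without the 3 arrays with the most probes detected. Irgm1, a regulator of the other IRG proteins, stood at 3.10, 3.40 and 3.31 in STAM-NON, at 4.03, 3.78 and 3.73 in STAM-INS, and at 2.87, 3.17 and 2.68 in Normal. The STAM-NON mice overlapped with Normal, while every STAM-INS mouse lay above both other groups. The difference was 0.36 (SE 0.16, adjusted p = 0.14) in STAM-NON and 0.94 (SE 0.16, adjusted p = 0.0103) in STAM-INS. Igtp stood at 4.01, 4.21 and 4.20 in STAM-NON, at 4.92, 4.31 and 4.42 in STAM-INS, and at 3.97, 3.90 and 3.52 in Normal. It differed from Normal by 0.34 (SE 0.19, adjusted p = 0.223) and 0.75 (SE 0.19, adjusted p = 0.0367).

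Iigp1, an effector of the IRG family, was the only member that fell. It stood at 3.34, 3.57 and 3.45 in STAM-NON, at 4.19, 3.80 and 4.06 in STAM-INS, and at 4.35, 4.46 and 3.91 in Normal. All 3 STAM-NON mice lay below all mice of the other 2 groups, while STAM-INS and Normal overlapped. The difference from Normal was -0.79 (SE 0.17, adjusted p = 0.0247) in STAM-NON and -0.22 (SE 0.17, adjusted p = 0.397) in STAM-INS. The second probe gave -0.57 in STAM-NON (adjusted p = 0.0443) and 0.09 in STAM-INS. The call was lost under 10 of the same 22 settings, among them centring on the spike-in spots and quantile normalisation.

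Among the 11 other effectors, 7 rose in STAM-NON and 9 in STAM-INS, with median differences of 1.0 and 1.31. Ifi44, a cytoplasmic protein of poorly known action, stood at 0.16, -0.14 and 0.68 in STAM-NON, at 1.26, 0.81 and 0.37 in STAM-INS, and at -2.40, -1.46 and -1.85 in Normal. The nearest STAM and Normal mice were more than a log2 unit apart, and the differences were 2.14 (SE 0.32, adjusted p = 0.01) and 2.72 (SE 0.32, adjusted p = 0.00322). Rsad2 encodes viperin, which makes a nucleotide that ends viral RNA chains, and carries the ISRE core on the opposite strand. It stood at 1.32, 0.75 and 1.67 in STAM-NON, at 1.20, 1.51 and 1.05 in STAM-INS, and at -0.93, 0.34 and -0.20 in Normal. The Normal mice were spread widely, with the largest SD of the list in that group (0.64), but none reached the STAM range. The differences were 1.51 and 1.52 (SE 0.34 in both), with adjusted p of 0.0261 and 0.0254. Its neighbour Cmpk2, a mitochondrial nucleotide kinase, stood at 0.14, -0.14 and -0.48 in STAM-NON, at 0.52, 0.15 and -0.19 in STAM-INS, and at -1.72, -0.73 and -1.02 in Normal. It differed by 1.0 (SE 0.29, adjusted p = 0.0504) and 1.31 (SE 0.29, adjusted p = 0.0242), so that only the second passed the test. In STAM-NON a second probe of Cmpk2 did pass it, at 0.89 (adjusted p = 0.0451).

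Isg20, an exonuclease for single-stranded RNA, stood at 1.94, 1.97 and 3.25 in STAM-NON, at 2.26, 3.32 and 2.64 in STAM-INS, and at 0.97, 0.98 and 0.82 in Normal. The Normal mice were close together and 1 mouse of each STAM group stood high, with differences of 1.47 and 1.82 (SE 0.38 in both) and adjusted p of 0.0365 and 0.0204. Trim30a, a ubiquitin ligase of the TRIM family, stood at -0.30, -0.67 and -0.30 in STAM-NON, at -0.30, -0.17 and -0.49 in STAM-INS, and at -1.96, -1.68 and -1.48 in Normal. The mice of a group lay close together, and the differences were 1.29 and 1.39 (SE 0.17 in both), with adjusted p of 0.00653 and 0.00338. Xaf1, which promotes cell death by binding an inhibitor of apoptosis, stood at 1.69, 1.87 and 1.59 in STAM-NON, at 2.32, 2.10 and 1.60 in STAM-INS, and at 0.03, 1.09 and 0.28 in Normal. The second Normal mouse was nearest to the STAM mice without reaching them, and the differences were 1.25 and 1.54 (SE 0.28 in both). Samd9l, a growth-restraining antiviral protein, stood at 2.06, 1.86 and 2.24 in STAM-NON, at 2.24, 2.48 and 1.94 in STAM-INS, and at 0.68, 1.84 and 0.99 in Normal. The second Normal mouse lay just under the lowest STAM mouse, and the difference passed the test only in STAM-INS (0.88, adjusted p = 0.067, and 1.05, adjusted p = 0.0456, SE 0.29 in both).

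Rtp4, a chaperone for receptors on their way to the cell surface, stood at 3.84, 4.29 and 4.06 in STAM-NON, at 4.69, 4.56 and 4.23 in STAM-INS, and at 3.04, 3.54 and 3.13 in Normal. Both STAM groups lay above Normal, by 0.82 and 1.25 (SE 0.19 in both), with adjusted p of 0.0278 and 0.007. Parp14, which adds ADP-ribose to proteins, stood at 2.93, 3.10 and 3.29 in STAM-NON, at 3.48, 3.51 and 3.14 in STAM-INS, and at 2.39, 2.66 and 2.42 in Normal. Its rise was smaller, 0.62 and 0.89 (SE 0.15 in both), with adjusted p of 0.0325 and 0.0109. Bst2 and Ifi35 stood apart from the other effectors. Bst2, or tetherin, which holds budding virus at the cell surface, differed from Normal by 0.07 (SE 0.17) in STAM-NON and 0.28 (SE 0.17) in STAM-INS, and its ISRE core letters are printed above. Ifi35 differed by 0.01 and 0.17 (SE 0.15 in both).

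**Figure D4:**
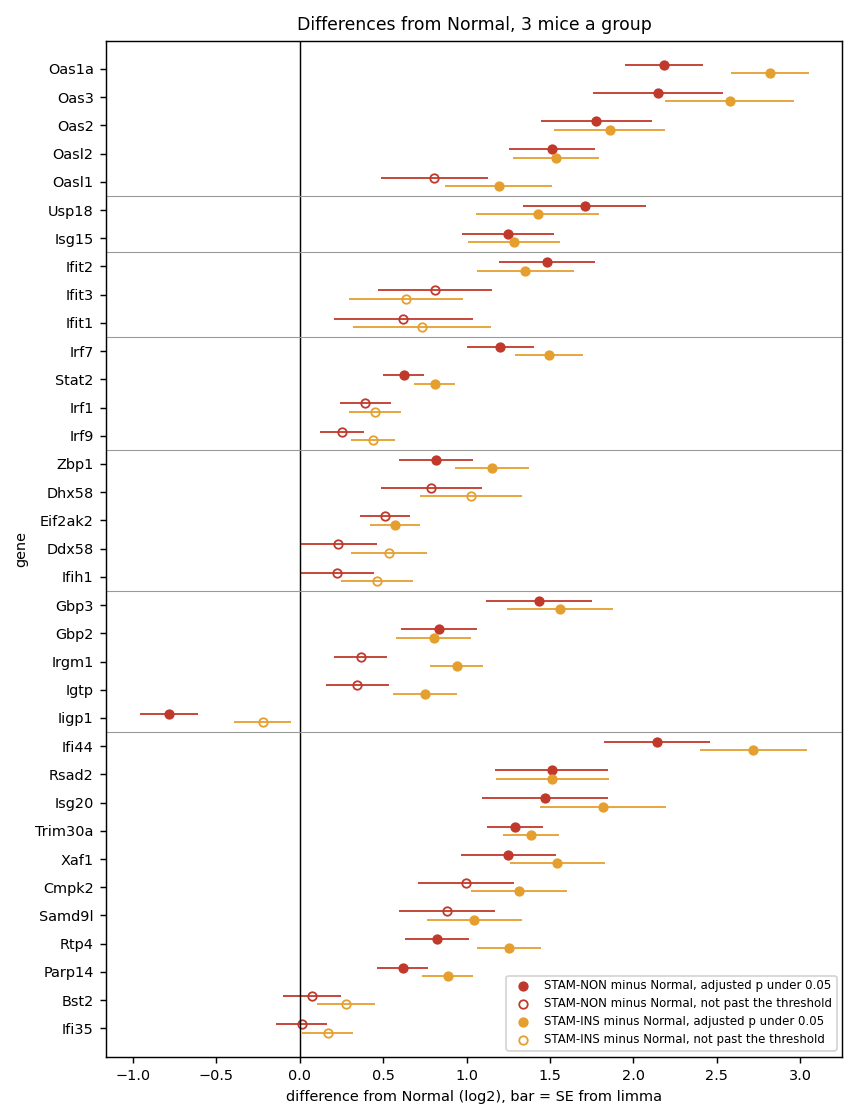
Difference from Normal on the log2 scale (points) with the SE from limma (bars) for the 35 genes, in STAM-NON (red) and STAM-INS (orange), 3 mice a group, filled where the adjusted p was under 0.05. Filled points number 20 in STAM-NON, with Iigp1 at -0.79 the one to the left of 0, and 25 in STAM-INS, with Oas3, not well above background in Normal, among both.

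The comparison of STAM-INS with STAM-NON asks what insulin changed in STAM mice, and its 6 arrays lay on 1 slide. All STAM-NON arrays and STAM-INS 1 lay in row 1 of it and STAM-INS 2 and 3 in row 2, so row and treatment are partly confounded. None of the 35 genes passed the test, where 0.0913% of all tested probes did (limma). At an unadjusted p under 0.05 there were 3 genes (8.57%), Oas1a, Iigp1 and Irgm1, against 8.78% of all tested probes. The differences ran from -0.28 to 0.63 with SEs from 0.12 to 0.41. The 95% intervals of single genes, not adjusted for their number, reached from -1.13 to 1.32 at the widest. That of Isg15 was -0.60 to 0.67, that of Irf7 -0.17 to 0.75 and that of Trim30a -0.28 to 0.48, so a smaller change in either direction was not detectable with 3 mice a group. The genes lay slightly to the high side, with 31 of 35 above 0 and a median of 0.21 against 0.03 over all tested probes. With arrays centred on the spike-in spots, the median of all tested probes moved to -0.12 in this comparison and to 0.00 in STAM-NON minus Normal, the median of the 35 genes here was 0.06, and 22 of 35 lay above 0. Oas1a was higher in STAM-INS by 0.63 (SE 0.23, adjusted p = 0.516), Irgm1 by 0.58 (SE 0.16, adjusted p = 0.432) and Iigp1 by 0.56 (SE 0.17, adjusted p = 0.475). The second probes of these genes gave 0.52, 0.61 and 0.66. In Irgm1, Igtp and Iigp1 the groups did not overlap, 3 of 35 genes (8.57%) against 12.2% of all tested probes. Usp18 lay lower in STAM-INS by 0.28 (SE 0.37), the lowest value of the list.

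The genes upstream were taken from a list of interferons and a list of their receptors and JAK-STAT components. Of 21 interferon genes, 16 had a probe and 4 could be tested, and none of these passed in any comparison. Ifnb1, interferon beta, was not well above background on any array. Ifng, interferon gamma, was well above background on 2 of 3 STAM-NON, 2 of 3 STAM-INS and 0 of 3 Normal arrays. Among the receptors and JAK-STAT components, 0 of 9 tested genes passed in STAM-NON minus Normal, STAM-INS minus STAM-NON or STAM-INS minus Normal. At an unadjusted p under 0.05 there were 2, 1 and 1 of 9, where 35.8%, 8.78% and 32.5% of all tested probes were. Ifnar1 and Ifnar2, the receptor of type I interferon, differed by -0.49 (adjusted p = 0.0501) and -0.24 in STAM-NON. Ifngr1 and Ifngr2, the receptor of interferon gamma, differed by 0.45 and 0.01.

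In the pathway that induces interferon, 3 of 16 tested genes rose and 1 fell in STAM-NON minus Normal, where 6.3% of all tested probes rose and 9.76% fell. The 4 of 16 (25%) are set against 16.1% in either direction, a share near the background. Mb21d1 encodes cGAS, the sensor of DNA in the cytosol, and rose by 1.06 (SE 0.15, adjusted p = 0.00817). Tmem173 encodes STING, which passes that signal on, and rose by 1.21 (SE 0.24, adjusted p = 0.018). Both also rose in STAM-INS, by 0.98 and 0.96. Irf8, a factor of the myeloid lineage, rose by 0.96 in STAM-NON, and Tlr9, the endosomal DNA receptor, fell by 0.52. Tlr7 differed by -0.02 in STAM-NON, but its second probe, not in these counts, rose by 1.83 (adjusted p = 0.0357). Irf3, the factor that STING activates, differed by -0.30 (SE 0.10, adjusted p = 0.08). Of 8 negative regulators, Socs3 rose by 1.11 and 1.62 and Samhd1 by 0.51 and 0.52 in STAM-NON and STAM-INS, while Socs1 differed by 0.55 and 0.59 (SE 0.27) without passing the test.

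A further list of 62 genes known to respond to interferon, of which 51 could be tested, was used to see how far the pattern went. In STAM-NON minus Normal 20 rose and 2 fell, with a median of 0.58, where 6.3% of all tested probes rose and 9.76% fell with a median of -0.13. In STAM-INS minus STAM-NON none passed the test and 4 of 51 had an unadjusted p under 0.05, against 8.78% of all tested probes. In STAM-INS minus Normal 20 rose and 1 fell, with a median of 0.62, where 5.16% of all tested probes rose and their median was -0.09. Slfn5, which is in the first of these counts, was well above background on 0 of 3 Normal arrays and was tested only through STAM-NON, where its signal was at least 2.06-fold that of Normal. In STAM-NON, Mlkl, the executor of necroptosis, rose by 1.74, Ifi27l2a by 1.73, the chemokine Cxcl9 by 1.58, Slfn2 by 1.40 and Oas1c by 1.39. Pml and Sp110, both of nuclear bodies, fell by 0.70 and 0.57. In STAM-INS Mlkl rose by 1.85, Ly6e by 1.73, Tgtp2 by 1.63, Cxcl9 by 1.60, Ifi27l2a by 1.53 and Slfn8 by 1.51, and Sp110 fell by 0.76.

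Markers of other liver cell types moved as well, and in bulk tissue more cells of a type and more RNA per cell cannot be told apart. All 10 hepatocyte markers were well above background on all 9 arrays, which bears out the labelled tissue. Of these, 9 lay below 0 in STAM-NON minus Normal with a median of -0.33, and Cps1 fell by 0.67. Their summed signal, in units of the 75th percentile spot, was 5744 to 7352 in STAM-NON, 7001 to 7701 in STAM-INS and 7916 to 8397 in Normal. Of the Kupffer cell and macrophage markers, 11 of 11 lay above 0 in STAM-NON with a median of 1.03, and Trem2, Cd5l and Clec4f rose, by 2.93, 1.33 and 0.97. Gpnmb, among the 11, was well above background on 0 of 3 Normal arrays and was tested only through STAM-NON, so it had to differ. Its signal there was at least 4.32-fold higher, and the median without it is not given here. Csf1r differed by 0.86, and its further probes, not in these counts, by -0.38 and 0.96. The summed signal of the macrophage markers was 198.1 to 348.6 in STAM-NON, 164.3 to 393.3 in STAM-INS and 97.49 to 147.5 in Normal, without overlap between STAM and Normal. STAM-INS 1 had the lowest macrophage sum of the 6 STAM mice and the highest median of the 35 genes, 1.34. STAM-INS 2 had the highest macrophage sum and the next median, 1.29. The part of macrophage content in the differences from Normal was not tested.

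Of the 13 T and NK cell markers 9 could be tested, and Gzma rose in STAM-NON by 2.22. The difference of STAM-NON from Normal lay above 0 in 5 of the 9 and below 0 in 4. Prf1, Cd4 and Nkg7 differed by -0.36, -0.46 and -0.07 without passing the test. For Prf1 (adjusted p = 0.0506) all 3 STAM-NON mice lay below all 3 Normal mice. The second Nkg7 probe, not in these counts, rose in STAM-NON (adjusted p = 0.0146). Gzmb was well above background on 0 of 3 Normal arrays, was tested only through the STAM groups, and had at least 3.30-fold higher signal in STAM-NON. The defining markers Cd3e, Cd3d and Cd3g differed by -0.24, 0.91 and 0.77 without passing the test. The summed signal of the T and NK cell markers was 26.79 to 48.16 in STAM-NON, 31.85 to 47.25 in STAM-INS and 41.11 to 43.24 in Normal. It rests mostly on 1 Cd4 probe, with a mean level of 4.59 in STAM-NON and 5.04 in Normal. The second Cd4 probe was too dim to be tested. Of the B cell markers 2 of 5 could be tested and neither passed in STAM-NON minus Normal, with sums of 1.057 to 2.673, 1.128 to 1.356 and 1.433 to 1.686. Plasmacytoid dendritic cells are known for making much type I interferon. Of their 4 tested markers none passed in STAM-NON minus Normal, and their sums were 168 to 192.3 in STAM-NON, 173.8 to 186 in STAM-INS and 188.2 to 219.3 in Normal. These sums rest mostly on 1 Siglech probe, with a mean level of 7.26 in STAM-NON and 7.46 in Normal. The second Siglech probe was too dim to be tested. Cox6a2 was well above background on 0 of 3 Normal arrays, was tested only through the STAM groups, and had at least 3.26-fold higher signal in STAM-NON. None of 6 neutrophil markers passed in STAM-NON minus Normal, though their median difference was 2.98 (Mpo among them was well above background on 0 of 3 Normal arrays), with sums of 144.9 to 314.5, 143.5 to 159.5 and 127.5 to 157.2. In Normal the neutrophil sum rests mostly on Csf3r, with a mean level of 7.08. STAM-NON 3 stood highest in the neutrophil markers, at a median of 6.06 above Normal, and had the lowest median of its group over the 35 genes. STAM-INS 2 was next in these markers, at 2.86, with a median of 1.29 over the 35 genes. The part of these cells was not tested either.

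**Figure D5:**
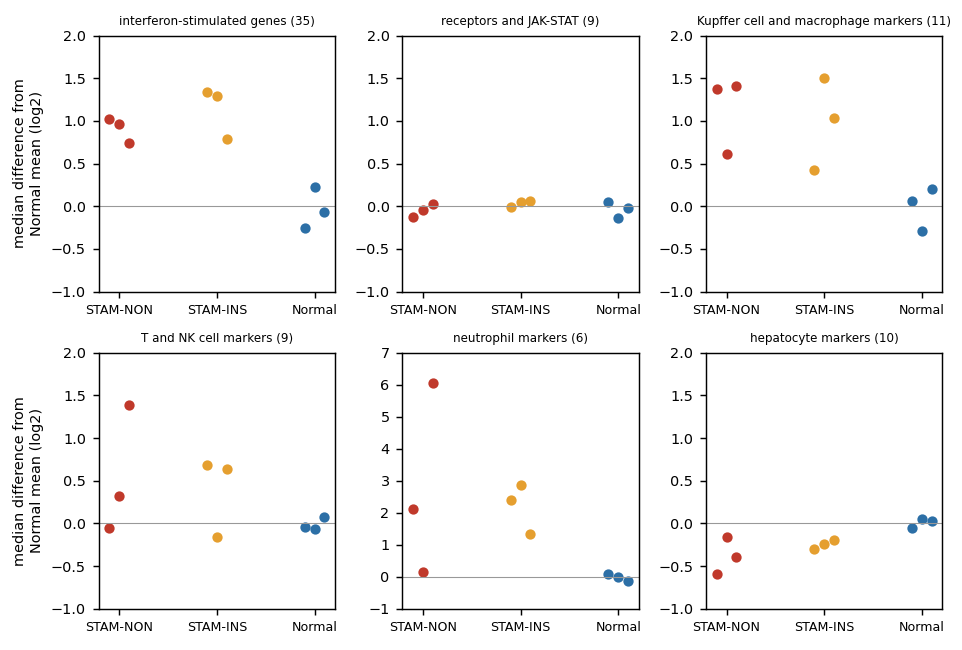
Median difference from the Normal mean on the log2 scale in each mouse (points, 3 per group) for the interferon-stimulated genes and 5 other lists, with the number of genes in brackets. The axis runs from -1 to 2 except for the neutrophil markers, where it runs to 7. The interferon-stimulated genes and the macrophage markers lie above Normal in all 6 STAM mice, and the receptors and JAK-STAT components lie near 0 in all 9.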

How the data were processed

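Liver RNA of 9 male mice was measured on 1-colour Agilent arrays. The files deposited by the authors hold Feature Extraction 11.5.1.1 output, with each spot's background-subtracted intensity (linear scale), not normalised between arrays, and other columns of flags and positions. The design is built on mm9. Groups and replicate numbers came from the labels. Nothing in them says how mice were housed or drawn, so p-values measure the spread between these mice.

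Control and outlier-flagged spots (161 to 217 per array) were left out, spots of 1 probe averaged, and log2 signal centred on the 75th percentile of each array. Probes well above background in at least 0.5 of spots on all 3 arrays of a group were tested (26278, after 13 with a missing value were dropped) with limma 3.58.1 in R 4.3.3, on all 9 arrays, with Benjamini-Hochberg adjustment. The number of arrays limits the precision. The tested probe with the highest mean stood for its gene. Of 10 second probes of the members, 9, 10 and 10 had the same call as the first in STAM-NON minus Normal, STAM-INS minus STAM-NON and STAM-INS minus Normal. Second probes of the other lists are not in these counts. For a gene not well above background in a group, the dim side of a bound is, per array, the higher of its own signal and the lowest signal well above background.

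Per-mouse values are given for each member past the threshold in any comparison, and up to 6 genes are named from each other list by size, with a few pathway genes whatever they showed, 1 of which is not reported here. The members and lists were chosen with earlier results of these data known. Alternatives covered scaling, background correction, filters, blocks and single replicates. The normexp correction used the median signal of the spot, since the column of mean signal was not among those used. Promoters came from RefSeq (GRCm38.p6). The fit was tested on simulated data. The study's methods name no array normalisation or test.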

Additional observations from a re-analysis of the deposited data

How the results depend on the processing

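No value of a passing gene changed its direction under any alternative run, and none of the 35 genes passed in STAM-INS minus STAM-NON under any of them. The number passing in STAM-NON minus Normal, 20, fell to 2 with no filter on dim probes, to 0 with the slide row as a block and to 0 without STAM-INS 1, STAM-NON 3 and STAM-NON 1 (chosen after the data were seen), the arrays with the most probes detected. The row block compares STAM-NON (row 1) with Normal (row 2) only through the STAM-INS arrays, which lay in both. Leaving out 1 replicate gave 5 to 20, with 5 without Normal 1, 8 without Normal 3, 9 without STAM-NON 1, 11 without STAM-NON 3 and 13 without Normal 2. The median difference of 0.82 became 0.53 with the slide row as a block and 0.71 to 1.12 with 1 replicate left out, the highest without Normal 2. In STAM-INS minus Normal the 25 became 6 with no filter, 15 with the row block, 14 without the same 3 arrays, and 11 to 23 without 1 replicate, with 11 without Normal 3, 13 without Normal 1, 13 without STAM-INS 2 and 15 without STAM-INS 1. Within row 2, STAM-INS 2 and 3 against Normal gave a median of 1.04 with 34 of 35 genes above 0. Within row 1, STAM-INS 1 against the STAM-NON mice gave 0.36. The share of all tested probes that passed is not given for most of these settings. The counts above, taken alone, therefore do not show whether the genes lost more calls than all tested probes did.

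Oas1a and Trim30a lost the call in STAM-NON minus Normal with the row block and without those 3 arrays, and under no other alternative. In STAM-INS minus Normal Oas1a, Ifi44, Irf7, Rtp4 and Trim30a kept it under all 22 alternatives and without those 3 arrays. The genes that rose in STAM-INS but not in STAM-NON were less firm. Samd9l, Oasl1, Igtp, Eif2ak2, Cmpk2 and Irgm1 lost the call under 14, 13, 12, 12, 7 and 1 of the 22 alternatives. The numbers of passing genes include Oas3. With a replicate block the numbers passing were 15, 0 and 17 in STAM-NON minus Normal, STAM-INS minus STAM-NON and STAM-INS minus Normal. Correlations of same-numbered deviations ran from -0.288 to 0.149, and not every mouse correlated best with its own number. They showed no pairing by replicate number, but deviations within groups of 3 mice cannot exclude it. Over single genes, 277 values lost the call, 21 gained it and 2114 kept their side of the threshold. Signal over background limits Oas3, Slfn5, Gpnmb, Gzmb, Mpo and Cox6a2, each well above background on 0 of 3 Normal arrays.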
